A study of Oryctolagus cuniculus with 8 samples.

Results

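SRGN, PXYLP1 and EMP2 were 3 of the 25666 genes of a rabbit retina expression table, and were selected on measured values, since in FPKM all 3 stood lower in the libraries from diets with sucrose than in those without. RNA of 8 retinas of wild-type male Chinchilla rabbits, about 10 months old and fed for 6 months, was sequenced, with 2 retinas per diet. ND was standard chow, HFD added 10% lard and 0.5% cholesterol to it, HSD added 40% sucrose, and HFSD had sucrose at 35% together with lard at 10% and cholesterol at 0.5%. The lard and the cholesterol were always given together, so their effects cannot be told apart. HFSD also had less sucrose than HSD (35% against 40%), so comparisons of fat that use HFSD, and the interaction, are not of fat alone. The labels do not say whether the 2 retinas of a diet came from separate animals, so the spread used in every test is the spread between these libraries and may be partly technical. All 3 genes were among the 12204 protein-coding genes that reached at least 1 FPKM (sequenced fragments corrected for the length of the gene model and for the size of the library) in at least 2 libraries.

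The 3 genes have different places in proteoglycan biology, and EMP2 encodes neither a core protein nor an enzyme of the pathway. SRGN encodes serglycin, the core protein of an intracellular proteoglycan that packs proteases, cytokines and other cargo into the secretory granules of blood cells and is also made by endothelial cells. Proteoglycan assembly starts when a xylose is placed on a serine of such a core protein and is extended to a short linkage region, from which chondroitin or heparan sulfate chains grow. FAM20B adds a phosphate to that xylose, and PXYLP1, the 2-phosphoxylose phosphatase, takes it off again so that the chain can be polymerised. EMP2 is epithelial membrane protein 2, a small membrane protein of the PMP22 family that is linked with integrins and caveolae and is found in the retinal pigment epithelium among other epithelia.

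The depth by which a library had been scaled lay between 15764577 and 22785832 fragments. The FPKM of the 3 genes could be read back as whole fragments, whose counting error alone was 4.12 to 12.4% for SRGN, 0.903 to 2.40% for PXYLP1 and 4.64 to 13.4% for EMP2, without allowance for PCR copies. Some libraries stood apart in markers of muscle, oligodendrocytes or red cells. Skeletal muscle markers summed to 446 FPKM in HSD replicate 2 and to at most 1.33 FPKM in any other library. Oligodendrocyte markers differed within the ND pair, at 720 FPKM in replicate 1 and 97.1 FPKM in replicate 2, and were lowest at 46.1 FPKM in HSD replicate 2. Red cell genes summed to 82.3 and 72.7 FPKM in ND replicate 1 and HFD replicate 1 and to 0.290 and 1.16 FPKM in HSD replicate 1 and HFSD replicate 1. The differences with sucrose of the 3 genes are given without each library in turn beside their values.

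SRGN values of the 4 diets did not overlap. In the ND retinas it measured 38.8 and 42.3 FPKM (377 and 372 fragments on a gene model of 497 bases) and in the HFD retinas 59.3 and 62.4 FPKM (589 and 566 fragments). In the HSD retinas it stood at 10.5 and 12.6 FPKM (82 and 108 fragments), and in the HFSD retinas at 6.00 and 8.29 FPKM (68 and 65 fragments). From high to low the order was HFD, ND, HSD and HFSD, and of the neighbours in that order, HFD and ND, and HSD and HFSD, did not pass the adjusted test given below. The means were 60.9 ± 2.17 FPKM for HFD, 40.5 ± 2.47 for ND, 11.5 ± 1.51 for HSD and 7.15 ± 1.61 for HFSD (s.d., n = 2 each). Relative to the ND mean, SRGN RNA was thus at 150% in HFD, 28.5% in HSD and 17.6% in HFSD.

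PXYLP1 was the most abundant of the 3 and stood at a high level without sucrose and a low level with it. In ND it measured 140 and 240 FPKM (7899 and 12276 fragments on 2883 bases) and in HFD 196 and 214 FPKM (11279 and 11284 fragments). With sucrose it stood at 38.1 and 43.0 FPKM in HSD (1733 and 2136 fragments) and at 39.4 and 43.9 FPKM in HFSD (2588 and 1995 fragments). The 4 retinas with sucrose fell within 1 narrow range, while the 2 ND retinas enclosed both HFD retinas. The means were 205 ± 13.1 FPKM in HFD, 190 ± 71.0 in ND, 41.6 ± 3.15 in HFSD and 40.5 ± 3.41 in HSD (s.d., n = 2 each). HFD and ND did not differ beyond their spread, and neither did HFSD and HSD. The HSD and HFSD means were 21.3% and 21.9% of the ND mean, which itself rests on retinas that differed by more than the counting error of either.

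EMP2 was the least abundant. Its values were 4.68 and 4.55 FPKM in ND (329 and 289 fragments on 3590 bases) and 6.47 and 4.72 FPKM in HFD (464 and 309 fragments). They were 0.989 and 0.937 FPKM in HSD (56 and 58 fragments) and 0.721 and 1.08 FPKM in HFSD (59 and 61 fragments). The HFD retinas both lay above the ND retinas, the second by a small margin, and the HSD retinas fell between the HFSD retinas. The means were 5.59 ± 1.24 FPKM for HFD, 4.62 ± 0.0979 for ND, 0.963 ± 0.0374 for HSD and 0.899 ± 0.251 for HFSD (s.d., n = 2 each), and neither the first nor the last pair of neighbours differed beyond its spread in the test given below. HSD and HFSD were at 20.9% and 19.5% of the ND mean. EMP2 met the level for testing through the ND and HFD retinas, since with sucrose 1 of the 4 libraries reached 1 FPKM.

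**Figure D1:**
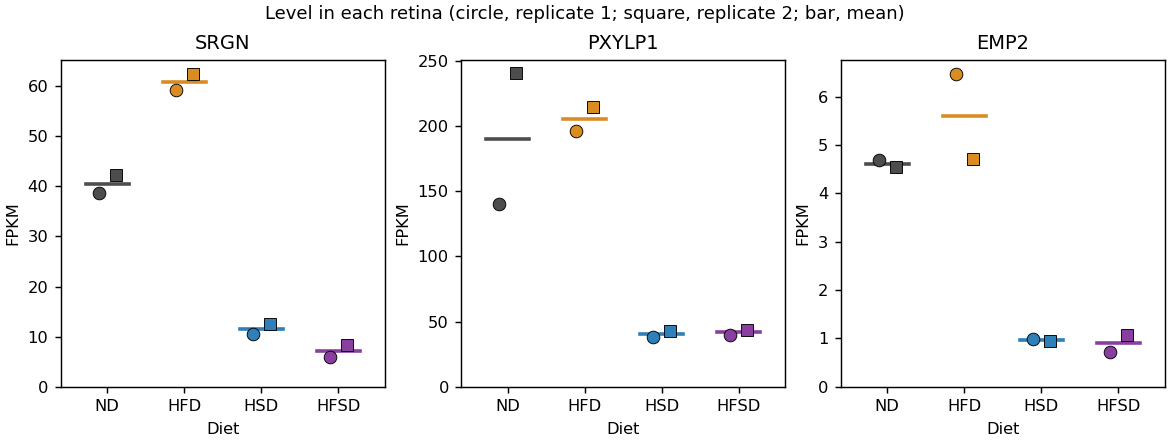
FPKM of SRGN, PXYLP1 and EMP2 (vertical axes from 0, a separate scale for each gene) in the 2 retinas of each diet, with bars at the means. The retinas of HSD and HFSD lie below those of ND and HFD for all 3 genes, SRGN is highest in HFD at 59.3 and 62.4 FPKM, and the ND retinas of PXYLP1 lie apart at 140 and 240 FPKM.

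The genes were chosen for their difference with sucrose, which is therefore described here without a test. The 4 retinas with sucrose lay below the 4 without for all 3 genes, as they did for 6.48% of the 12204 genes, while the opposite order held for 6.39%. SRGN averaged 50.7 ± 11.9 FPKM without sucrose and 9.34 ± 2.83 FPKM with it (s.d., n = 4 each), a 5.43-fold lower mean. PXYLP1 averaged 198 ± 42.6 and 41.1 ± 2.75 FPKM, a 4.81-fold lower mean. EMP2 averaged 5.10 ± 0.914 and 0.931 ± 0.151 FPKM, a 5.48-fold lower mean. On this linear scale the 3 folds were close together. In bulk RNA a lower level in each cell and a smaller share of the cells that make the RNA cannot be told apart.

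On the log2(FPKM + 1) scale, which understates the change of low genes, the difference with sucrose was −2.34 for SRGN, −2.21 for PXYLP1 and −1.65 for EMP2. The median over all 12204 genes was −0.0073. Counted from the most lowered gene, these differences took places 8, 13 and 39. Leaving out any 1 library moved them within −2.44 to −2.23 for SRGN, −2.41 to −2.02 for PXYLP1 and −1.75 to −1.56 for EMP2.

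The gap between the groups is given as a description. The lowest retina without sucrose exceeded the highest with sucrose by 4.22 times for EMP2, 3.19 times for PXYLP1 and 3.08 times for SRGN. A gap of 3 times, a limit just below that of SRGN, was reached by 6 of the 12204 genes in this direction and by 0 in the other, and nothing is read from this count since the genes were chosen for the difference. The other members of that group were SERPINB2, a serpin known as an inhibitor of plasminogen activators, with a gap of 6.36 times, TBX5, a transcription factor of the dorsal retina, with 5.85 times, and 1 gene that carries no symbol, with 4.25 times. These genes are named after their values were seen. Among the genes tested, the mean level of SRGN stood at the percentile 83.9 without sucrose and 38.4 with it, that of PXYLP1 at 96.6 and 80.4, and that of EMP2 at 24.7 and 3.18.

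**Figure D2:**
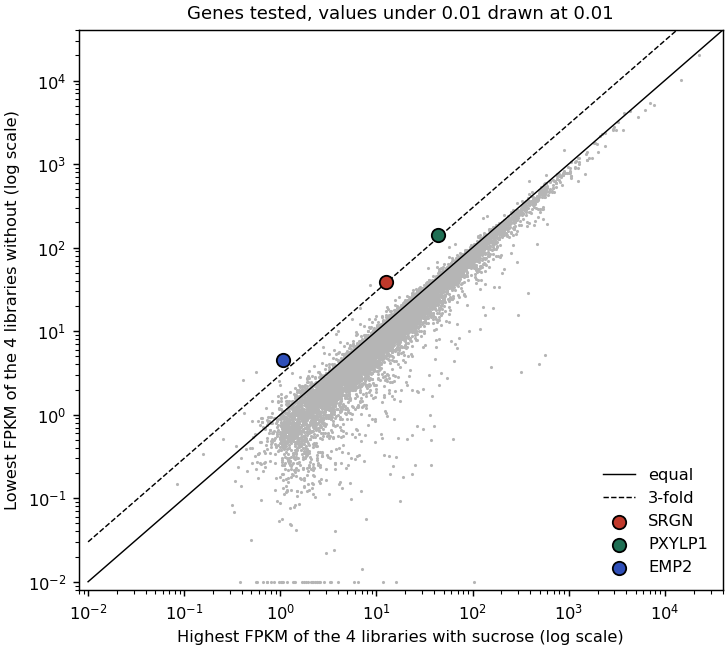
Each grey point is 1 of the 12204 genes tested, placed by its highest FPKM among the 4 libraries with sucrose (horizontal, log scale) and its lowest among the 4 without (vertical, log scale). The solid line marks equal values and the dashed line a gap of 3 times. EMP2, PXYLP1 and SRGN lie above the dashed line at gaps of 4.22, 3.19 and 3.08 times, where 6 genes lie in all.

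The same description held within each fat level. Without fat, HSD minus ND was −1.73 for SRGN, −2.15 for PXYLP1 and −1.52 for EMP2 on the log2 scale. With fat, HFSD minus HFD was −2.94, −2.27 and −1.79 in the same order. HFSD and ND, which differ in both ingredients, stood −2.36, −2.12 and −1.57 apart. Whether the difference depends on fat is the interaction tested below, which passed the adjusted threshold for none of the 3 genes.

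The effect of fat was not used to choose the genes and was tested with limma over all 12204 genes, with the reservation that ND and HFD are on the high side of the choice. None of the 3 genes passed an adjusted p of 0.05 in HFD against ND, where 0.00819% of all genes did (1 gene), nor in HFSD against HSD, where 0% did. At an unadjusted p under 0.05 these comparisons held 526 genes (4.31%) and 335 genes (2.75%), and SRGN was among both. SRGN was higher in HFD than in ND by 0.58 on the log2 scale (SE 0.161, 95% confidence interval 0.20 to 0.95, limma adjusted p = 0.998). Both HFD retinas exceeded both ND retinas for SRGN and EMP2, an order that 12.5% of genes showed.

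Within the sucrose diets SRGN moved the other way. HFSD minus HSD was −0.63 (SE 0.161, 95% confidence interval −1.01 to −0.25, limma adjusted p = 0.9998). Both HFSD retinas lay below both HSD retinas, as for 16.2% of genes, and 2.5% of genes combined this order with higher values in HFD than in ND. The difference between these 2 changes, the interaction of fat and sucrose, was −1.21 (SE 0.228, 95% confidence interval −1.74 to −0.67, limma adjusted p = 0.999). By its unadjusted p it held place 10 among the 12204 genes, 0.00819% of which (1 gene) passed the adjusted threshold, while 456 genes (3.74%) had an unadjusted p under 0.05. With each library left out in turn the interaction of SRGN stayed between −1.41 and −1.003. Averaged over sucrose, fat left SRGN at a difference of −0.03 (SE 0.114, limma adjusted p = 0.9996).

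PXYLP1 and EMP2 had small differences with fat and intervals that spanned 0. For PXYLP1, HFD minus ND was 0.16 (95% confidence interval −0.38 to 0.70, limma adjusted p = 0.998). It turned to −0.23 without ND replicate 1 and rose to 0.55 without ND replicate 2. HFSD minus HSD was 0.04 for PXYLP1 (−0.51 to 0.58, limma adjusted p = 0.9998), and it turned to −0.046 without HSD replicate 1 and to −0.038 without HFSD replicate 2. For EMP2, HFD minus ND was 0.22 (−0.24 to 0.68, limma adjusted p = 0.998), with 0.026 without HFD replicate 1 and 0.41 without HFD replicate 2. HFSD minus HSD was −0.05 for EMP2 (−0.51 to 0.40, limma adjusted p = 0.9998), and 0.081 without HFSD replicate 1. As EMP2 was below the level for testing in 3 of these 4 libraries, and adding 1 to such values shrinks a difference, little can be read from it. The interaction was −0.12 for PXYLP1 (−0.89 to 0.65), with 0.27 without ND replicate 1 and −0.51 without ND replicate 2. For EMP2 it was −0.27 (−0.92 to 0.37) and ran from −0.47 to −0.080 with libraries left out.

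**Figure D3:**
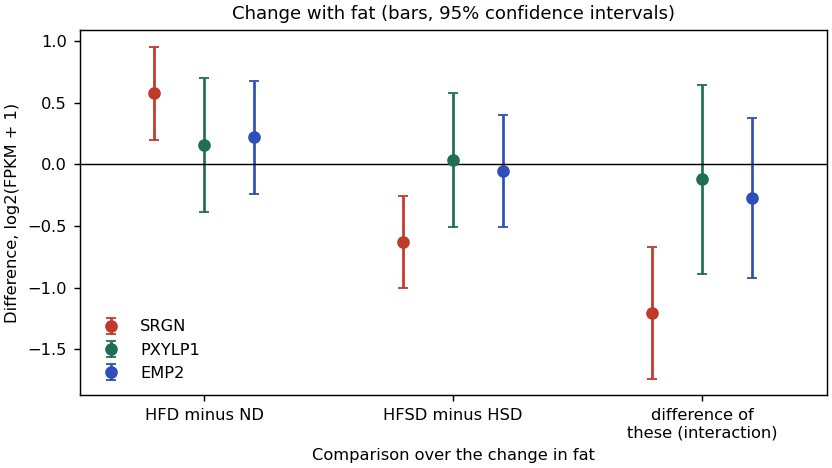
Differences on the log2(FPKM + 1) scale (vertical) in HFD minus ND, HFSD minus HSD and the interaction, with 95% confidence intervals from limma. The interval of SRGN lies above 0 for HFD minus ND and below 0 for HFSD minus HSD, while those of PXYLP1 and EMP2 include 0 in all comparisons, and no adjusted p passed 0.05.

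The genes listed for the linkage region had similar levels in the diets with and without sucrose. Of these 8 genes, 7 were in the table and tested, while B3GALT6 was not in it. With sucrose 4 were higher and 3 lower, none with an unadjusted p under 0.05 (median 0.05 on the log2 scale, limma adjusted p from 0.435 to 0.943). FAM20B, the kinase whose phosphate PXYLP1 removes, stood at 27.3, 31.2, 25.6 and 24.5 FPKM in the retinas of ND and HFD and at 33.8, 21.2, 31.1 and 27.6 FPKM in those of HSD and HFSD, a difference of 0.05. The xylosyltransferases that start the chain differed by 0.10 (XYLT1) and −0.11 (XYLT2). The galactosyltransferase B4GALT7 differed by −0.16, and B3GAT3, the glucuronyltransferase of this step, by −0.02. Its relatives B3GAT1 and B3GAT2, listed beside it but known for other glycans, differed by 0.12 and 0.17. All of these differences were between −0.16 and 0.17, where PXYLP1 stood at −2.21.

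The ratio of the phosphatase to the kinase is given as a description. FPKM of PXYLP1 was 5.12 to 8.76 times that of FAM20B in the 4 retinas without sucrose and 1.13 to 2.03 times in the 4 with it. Among PXYLP1 and the 7 listed genes, PXYLP1 was the most abundant in each retina without sucrose, with 35.3 to 46.4% of their summed FPKM. With sucrose it took place 4 in each retina, behind B4GALT7, B3GAT1 and B3GAT3, with 12 to 14.8%. The acid phosphatases related to PXYLP1 in sequence or reaction gave no call among 6 tested, from −0.40 for ACP6 and −0.17 for ACP2 through −0.07 for MINPP1, −0.00 for PPIP5K1 and 0.10 for ACPP to 0.35 for PPIP5K2 (adjusted p from 0.258 to 0.998). PPIP5K2, an inositol phosphate kinase that carries a phosphatase-like domain, was the member with an unadjusted p under 0.05, a level at which 9.17% of all genes were higher.

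Over all lists around the 3 genes, 212 genes were listed, 158 were in the table and 116 were tested, of which 45 were higher and 71 lower with sucrose (median −0.06 on the log2 scale). With limma and adjustment over all 12204 genes, 0 of them were called higher and 1 was called lower, where 0.0574% and 0.287% of all genes were called (7 and 35 genes). At an unadjusted p under 0.05 there were 10 higher and 19 lower, against 9.17% and 9.16% of all genes. For fat, 54 of the 116 were higher and 62 lower. Of these, 0 were called by limma, where 0.00819% of all genes were, and 4 had an unadjusted p under 0.05, all higher, while 3.2% of all genes had one.

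The gene called was PRELP, a small leucine-rich proteoglycan that ties basement membranes to connective tissue. It stood at 10.6 and 11.2 FPKM with ND, 17.6 and 22.8 with HFD, 4.43 and 3.43 with HSD, and 10.5 and 11.3 with HFSD. It was lower with sucrose by a log2 difference of −1.05 (SE 0.117, limma adjusted p = 0.0271) and higher with fat by 1.05 (SE 0.117, limma adjusted p = 0.180). Its HFSD retinas enclosed the ND retinas, whereas those of SRGN, PXYLP1 and EMP2 were far below ND. The call with sucrose was lost without HFD replicate 2, HSD replicate 2, HFSD replicate 1 or HFSD replicate 2, and also without the filter on low values (adjusted p = 0.0815), with voom (0.0673) and in a model of 2 groups (0.164), and the adjusted p ran from 0.0231 to 0.164 over all alternatives.

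Serglycin is 1 of many core proteins. Of 16 core proteins of the matrix tested, 8 were higher and 8 lower with sucrose (median −0.03). The outer values belonged to OPTC, a leucine-rich protein of the vitreous and ciliary body, at −2.28 (adjusted p = 0.323), and to DCN, decorin, at 1.24 (adjusted p = 0.274). OPTC stood at 11.7 and 37.6 FPKM in ND replicate 2 and HFD replicate 1 and at most at 0.209 FPKM elsewhere. DCN stood at 16.2 FPKM in HSD replicate 2 and at most at 1.80 FPKM elsewhere. SPOCK1, a testican proteoglycan of neural tissue, differed by 0.38 (adjusted p = 0.112).

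Of 12 core proteins of the cell surface tested, 11 were lower with sucrose (median −0.22), as were 6262 of all 12204 genes. At an unadjusted limma p under 0.05 there were 5 of them, against 9.16% of all genes. CD74, the invariant chain, which can carry chondroitin sulfate, differed by −1.24 (adjusted p = 0.0629). GPC3, a glypican, differed by −0.74 (adjusted p = 0.0775), and SDC3, a syndecan of nerve cells, by 0.01 (adjusted p = 0.953). No surface core protein passed the adjusted test in the 4-diet model. Without ND replicate 2, CD74 and CEMIP, a protein of hyaluronan breakdown, passed it beside PRELP (adjusted p = 0.0480 and 0.0485). Set beside the 39 core protein genes in the table, itself included, SRGN took places 10, 9, 7 and 4 by FPKM in the ND and HFD retinas, with 2.58 to 4.42% of their summed FPKM. It took places 16, 15, 17 and 16 in the HSD and HFSD retinas, with 0.384 to 0.848%.

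RNA of proteins that serglycin is known to store was low in the rows at hand. Of 26 genes of granule cargo listed (granzymes, perforin, neutrophil and mast cell proteases, platelet factors and chemokines), 10 were in the table and 0 reached the level for testing. Their summed FPKM was 0.432 to 1.32 in the retinas without sucrose and 1.41 to 1.90 in those with it, mostly from CCL4 and MMP9. MPO, CTSG and GZMK were at 0 in all 8 libraries. The sums did not overlap, but CCL4 itself did, at 0.0796 to 0.958 FPKM without sucrose and 0.829 to 1.21 FPKM with it.

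Enzymes of chain growth and breakdown gave no call either. At an unadjusted limma p under 0.05, 9.17% of all genes were higher with sucrose and 9.16% lower. For chondroitin and dermatan sulfate, 8 of 10 tested genes were lower with sucrose (median −0.18, 3 at an unadjusted p under 0.05), led by CHST3, a chondroitin sulfotransferase, at −0.75 (adjusted p = 0.0838) and CHPF2 at −0.34 (adjusted p = 0.129). For heparan sulfate, 9 of 16 were higher (median 0.01), from SULF2, a sulfatase that edits finished chains, at −0.57 (adjusted p = 0.275) to NDST3, which sulfates them as they grow, at 0.39 (adjusted p = 0.236). Among genes that make and carry sugar and sulfate precursors, 10 of 16 were higher (median 0.07, 4 at an unadjusted p under 0.05). SLC35D1, the transporter that brings UDP-sugars into the endoplasmic reticulum for chondroitin sulfate, differed by 0.89 (adjusted p = 0.102), and SLC26A2, the sulfate transporter, by 0.51 (adjusted p = 0.238).

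Of 11 tested genes of glycosaminoglycan breakdown, 10 were lower with sucrose (median −0.15), 3 at an unadjusted limma p under 0.05, where 9.16% of all genes were lower. GUSB, the lysosomal glucuronidase, differed by −0.41 (adjusted p = 0.150), and CEMIP by −1.37 (adjusted p = 0.229), with 8.31 and 0.684 FPKM for ND, 2.88 and 3.44 for HFD, 0.505 and 0.321 for HSD, and 0.213 and 1.55 for HFSD. The value of CEMIP in ND replicate 1 was the highest by far, and that in ND replicate 2 lay within the range of the sucrose diets. In the small hyaluronan list 1 of 3 tested genes was higher and 2 were lower. CD44, the hyaluronan receptor, stood at 10.8 to 14.5 FPKM without sucrose and at 9.86 to 14.6 FPKM with it.

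**Figure D4:**
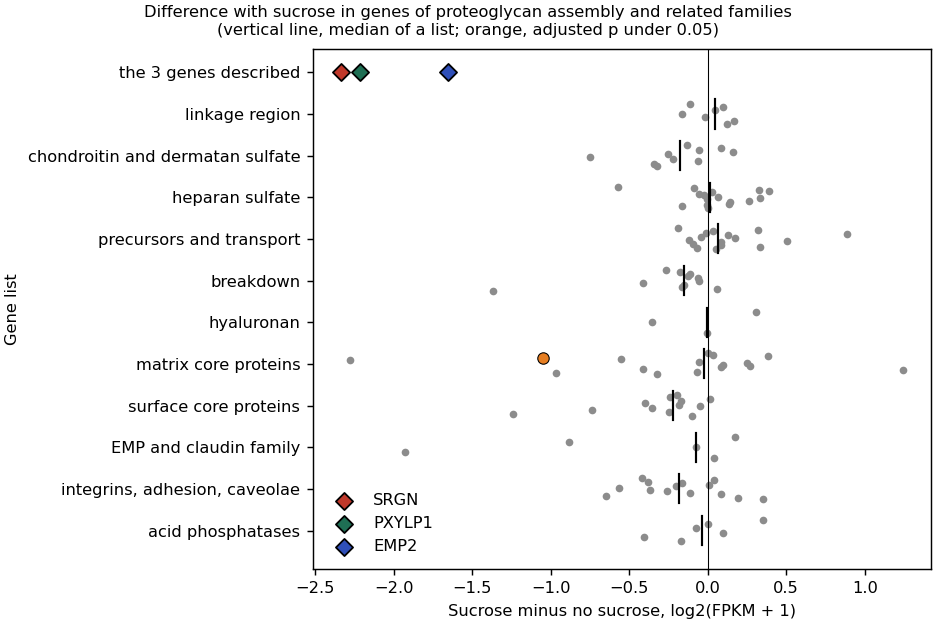
Differences with sucrose on the log2(FPKM + 1) scale (horizontal) for the tested genes of each list (rows, 1 point per gene, spread vertically for legibility), with the median of a list as a vertical line. SRGN, PXYLP1 and EMP2 (diamonds, top row, no test) lie at −2.34, −2.21 and −1.65, list medians lie between −0.22 and 0.07, and PRELP (orange, −1.05) is the gene with an adjusted p under 0.05.

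The relatives of EMP2 were mixed. EMP3, of the same family, stood at 9.77 to 19.9 FPKM without sucrose and at 10.6 to 20.7 FPKM with it (difference −0.08, adjusted p = 0.899). The ratio of EMP2 to EMP3 was 0.229 to 0.480 in the retinas without sucrose and 0.0349 to 0.102 in those with it. EMP1 did not reach the level for testing, with 0 to 1.38 FPKM, and nor did CLDN1, CLDN2, CLDN19 and LIM2, with at most 2.32 FPKM in any library. PMP22, a myelin protein of peripheral nerve, differed by −0.88 (adjusted p = 0.427), with 10.8 FPKM in ND replicate 1 and 0.834 FPKM in ND replicate 2. CLDN5, the claudin of blood vessel walls, differed by −1.93 (adjusted p = 0.293), with 28.01 FPKM in ND replicate 1 against 1.03 FPKM in ND replicate 2. TMEM47 differed by 0.17 and CLDN12 by 0.04, so none of 5 tested relatives was called, 2 being higher and 3 lower.

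In a list of integrins, adhesion proteins that act with them (PTK2, PTK2B, SRC, PXN and VCL) and caveolar proteins, 14 genes were tested, of which 5 were higher and 9 lower with sucrose (median −0.18). At an unadjusted p under 0.05 there were 1 higher and 5 lower, against 9.17% and 9.16% of all genes, and limma called none after adjustment. CAV1, caveolin-1, was at 38.2 to 44.1 FPKM without sucrose and at 49.2 to 54.8 FPKM with it (difference 0.35, adjusted p = 0.113). CAVIN1, which coats the same membrane pits, differed in the other direction, by −0.65 (adjusted p = 0.145). ITGB3, the beta subunit of vitronectin receptors, stood at 1.96 to 3.62 FPKM without sucrose and at 1.43 to 1.56 FPKM with it (difference −0.57, adjusted p = 0.174).

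Markers of several cell types also differed between the libraries with and without sucrose, and their part in the values of SRGN, PXYLP1 and EMP2 was not tested. Serglycin is known from blood cells and vessels. PTPRC, the common leukocyte antigen, stood at 0.112 to 0.208 FPKM without sucrose and at 0.0523 to 0.157 FPKM with it, so SRGN was 219 to 378 times as high as PTPRC in the former and 52.8 to 200 times in the latter. AIF1, a microglial marker, stood at 0.272 to 1.09 and at 0.284 to 0.568 FPKM. PECAM1 stood at 0.0485 to 1.62 and at 0 to 1.27 FPKM, and CDH5 at 0.0682 to 1.19 and at 0 to 0.306 FPKM. These 4 markers did not exceed 1.62 FPKM in any library and overlapped between the diets with and without sucrose. Some genes of the microglial list, named after their values were seen, did not overlap, an order that 6.48% of all genes tested showed. CSF1R, the receptor microglia need to survive, stood at 1.64 to 2.38 FPKM without sucrose and at 0.583 to 1.12 FPKM with it. C1QC, a chain of complement C1q, stood at 4.11 to 7.41 and at 1.97 to 2.72 FPKM, and C1QA, C1QB and ITGAM did not overlap either. CX3CR1, P2RY12, TMEM119, TYROBP, LAPTM5 and CD14 were among those that overlapped.

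Of all genes, 9.16% were lower with sucrose at an unadjusted limma p under 0.05, the share to set beside the lists that follow. Over whole lists, 11 of 12 tested microglial genes were lower with sucrose (summed FPKM 46.2 to 66.7 without and 40.8 to 48.5 with it), 5 at an unadjusted p under 0.05 and 0 after adjustment by limma. Of 11 tested endothelial genes 8 were lower (391.7 to 470 and 302 to 361 FPKM, with no overlap of the sums), 1 at an unadjusted p under 0.05, near the share of all genes, and 0 after adjustment. Among genes taken singly 6.48% had no overlap in this direction. The list of lymphoid and myeloid cells had 1 higher and 1 lower gene among 2 tested (8.87 to 12.4 and 8.87 to 14.2 FPKM). All 5 tested genes of mural cells were lower with sucrose (7.01 to 21.4 and 3.85 to 25.2 FPKM), 1 at an unadjusted p under 0.05 and 0 after adjustment. Red cell genes differed widely within diets, with summed FPKM of 82.3 and 8.12 in ND, 72.7 and 14.96 for HFD, 0.290 and 42.6 for HSD, and 1.16 and 19.1 for HFSD. The 1 red cell gene tested, HBB2, differed by −2.14 (limma adjusted p = 0.417), and its values overlapped between the diets with and without sucrose.

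EMP2 is known from the pigment epithelium, among other epithelia. Of 15 tested markers of that layer, 12 were lower with sucrose (574 to 910 FPKM without and 352 to 438 FPKM with it), 11 at an unadjusted p under 0.05 (9.16% of all genes were lower at that level) and 0 after adjustment. RPE65, its visual cycle enzyme, stood at 119, 74.6, 34.8 and 10.1 FPKM in the ND and HFD retinas and at 18.9, 13.7, 25.6 and 12.1 FPKM in the HSD and HFSD retinas. The summed list separated the libraries with and without sucrose as EMP2 did, while RPE65 alone overlapped between them. With fat 12 of the 15 markers were also lower (median −0.71), 6 at an unadjusted limma p under 0.05 and 0 after adjustment. Of all genes 3.2% had such an unadjusted p with fat, in either direction. The list summed to 742 and 910 FPKM in ND and to 603 and 574 FPKM in HFD, whereas EMP2 did not stand lower in HFD than in ND.

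Glial lists had no gene that passed the adjusted test. All 9 tested oligodendrocyte genes had lower means with sucrose (97.1 to 720 and 46.1 to 157 FPKM, overlapping), 8 at an unadjusted p under 0.05, where 9.16% of all genes were lower. So had 5 of 5 astrocyte genes (5188 to 7097 and 3467 to 4269 FPKM), 2 at that level, and 8 of 11 genes of Müller glia (3970 to 5351 and 3129 to 3315 FPKM), 4 at that level. A summed FPKM is weighted towards the most abundant genes of its list, and the part of these lists in the values of the 3 genes was not tested.

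The summed level of genes of the dorsal retina separated the libraries in the same way as the 3 genes. The genes of this list and of a ventral list were picked after values had been seen. All 7 dorsal genes were lower with sucrose (93.7 to 174.8 FPKM summed without and 61.3 to 72.0 FPKM with it), and since the list was picked in this way no test is given for it. TBX5 stood at 3.27, 9.85, 6.61 and 11.7 FPKM in ND and HFD and at 0.0175, 0.0320, 0.0848 and 0.560 FPKM in HSD and HFSD (difference −2.82). EFNB2, an ephrin of the dorsal retina, was at 12.3, 24.2, 18.4 and 23.1 FPKM and at 2.98, 2.40, 3.26 and 6.76 FPKM (difference −2.11).

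Of 5 ventral genes that reached the level for testing, 4 were higher and 1 lower with sucrose. All 7 tested cone genes were higher with sucrose at an unadjusted p under 0.05, as were 9.17% of all genes, and 2 were called after adjustment, where 0.0574% of all genes were. These were PDE6C, the cone phosphodiesterase (limma adjusted p = 0.0311), and OPN1SW, the short-wave opsin that is most abundant in the ventral retina of many mammals, at 67.6 to 114 FPKM without and 209 to 290 FPKM with sucrose (limma adjusted p = 0.0098). Both are named after their values were seen, so nothing is drawn from their calls. The labels do not say which part of a retina was taken, and the part of position in the values of the 3 genes was not tested. Replicate 1 stood below replicate 2 in every diet for the dorsal sum, PXYLP1 and SRGN. The ND retinas were far apart in the dorsal sum (93.7 against 174.8 FPKM) and PXYLP1 (140 against 240 FPKM). They were closer in SRGN (38.8 against 42.3 FPKM). EMP2 had the opposite order, with replicate 1 higher (4.68 against 4.55 FPKM for ND), in every diet except HFSD (0.721 against 1.08 FPKM). With 2 retinas per diet nothing is read from these orders.

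**Figure D5:**
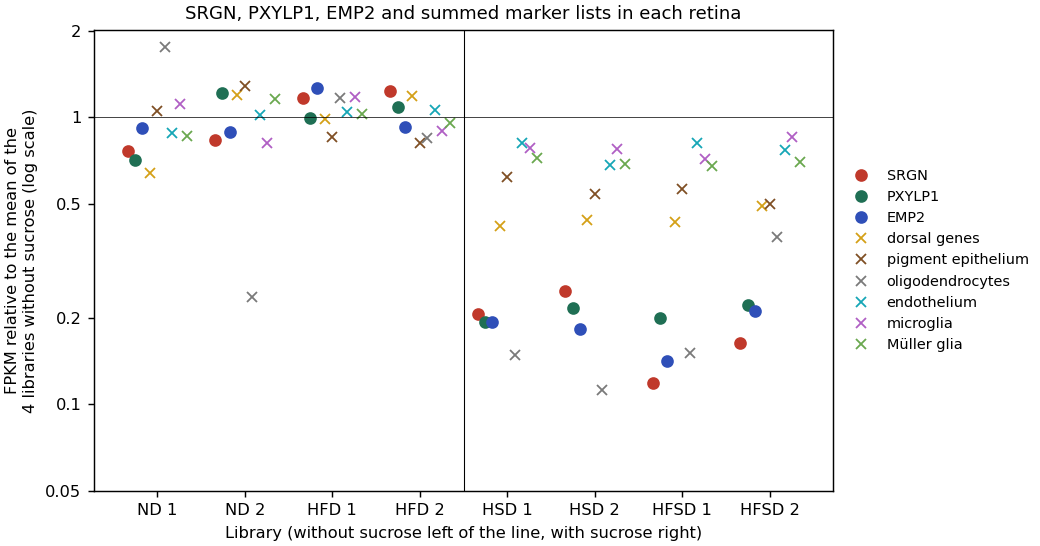
FPKM of SRGN, PXYLP1 and EMP2 (circles) and summed FPKM of 6 marker lists (crosses) in each of the 8 libraries, divided by the mean of the 4 libraries without sucrose (vertical, log scale; points offset sideways for legibility). The 3 genes lie lower than the dorsal, pigment epithelium, endothelial, microglial and Müller lists in all 4 libraries with sucrose, while the oligodendrocyte list, at 97.1 to 720 FPKM without sucrose and 46.1 to 157 FPKM with it, lies below all 3 genes in both HSD libraries.

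The 3 genes followed each other closely over the 8 libraries, and all were chosen for the same difference. Pearson's r of log2(FPKM + 1) was 0.973 for SRGN and EMP2, 0.969 for PXYLP1 and EMP2, and 0.961 for SRGN and PXYLP1 (n = 8 libraries that share 4 diets). After the mean of each diet was removed, r was 0.292, −0.112 and 0.508 in the same order. These values rest on 2 retinas per diet.

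Each gene was also set beside the genes whose pattern over the 8 libraries was most like it, as a description with no test. For PXYLP1 these included TBX5 (r = 0.986), SLC3A2, the heavy chain of amino acid transporters (0.982), S100A1, a calcium-binding protein (0.980), and SERPINB2 (0.980). S100A1 came closest to PXYLP1 in level without sucrose, with a mean of 165 FPKM. With sucrose S100A1 averaged 33.5 FPKM, and SLC3A2 was closer to PXYLP1 at 45.0 FPKM. For EMP2 they were ACSF2, an acyl-CoA synthetase (0.989), ASAP3 (0.978), ABHD4 (0.978), SCNM1 (0.975) and MGST3, a microsomal glutathione transferase (0.968). The likeness of ACSF2 was in shape and not in size, since it stood at 10.4 FPKM without sucrose and 5.75 FPKM with it.

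ACSF2 also led the list for SRGN (r = 0.968), followed by TLNRD1 (0.968), PDLIM3, an actin-binding protein (0.968), SLC12A4, a potassium chloride cotransporter (0.967), and SERPING1, the C1 inhibitor of complement (0.962). PDLIM3 shared the order of diets of SRGN, at 5.38 and 12.1 FPKM for ND, 13.6 and 13.7 for HFD, 1.88 and 3.76 for HSD, and 0.930 and 1.62 for HFSD. SERPING1 was low throughout, at 2.31 FPKM on average without sucrose and 0.948 FPKM with it. TLNRD1 differed least, with 35.3 FPKM without sucrose and 27.3 FPKM with it.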

How the data were processed

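RNA of 8 rabbit retinas was extracted with TRIzol, treated with DNase I and sequenced from TruSeq libraries on a HiSeq instrument. The authors trimmed 5′ ends, mapped reads with TopHat2, discarded reads with several positions and deposited FPKM values computed by their own R script. The genome build is not given in the sources used here, so no coordinates are printed, and 0 value columns were left without a sample. From the deposited FPKM, log2(FPKM + 1) was analysed with limma 3.58.1 in R 4.3.3 (mean-variance trend, moderated variances, 1 model of 4 diet means). The tests took in the 12204 protein-coding genes whose values reached 1 FPKM in 2 libraries or more, with Benjamini-Hochberg adjustment over all of them and a threshold of 0.05. Whole fragments were recovered from the FPKM steps (99.99% of values above 0 within 0.01 of a whole number) and used for counting error and for voom. The steps were tested on simulated data.

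Beside the 3 genes, those named are the genes of the linkage region, EMP and acid phosphatase lists, and in each other pathway list those called and the 2 with the largest rise or fall, shortened where values added nothing. For each of the 3 genes the 5 most correlated genes with a symbol are given, apart from 1 that is not reported here, as well as PTPRC, PECAM1, CDH5, AIF1 and RPE65. The genes and lists were chosen with earlier results of these data known. Dorsal and ventral genes and the cone and microglial genes named were added after values were seen. Alternatives were a pseudocount of 0.1, no filter, rescaling by trimmed means, a replicate block, voom, a model of 2 groups, all kinds of genes, and each library left out.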

Additional observations from a re-analysis of the deposited data

Results flagged for a closer look

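The change of SRGN with fat had opposite signs in the diets without and with sucrose, where HFSD had 35% sucrose and HSD 40%. It was 0.58 for HFD minus ND and −0.63 for HFSD minus HSD on the log2(FPKM + 1) scale, and the interaction was −1.21 (95% confidence interval −1.74 to −0.67, place 10 of 12204 genes by unadjusted p). The limma adjusted p was 0.999, so the result missed the threshold over the 12204 genes tested. The retinas stood at 38.8 and 42.3 FPKM in ND against 59.3 and 62.4 FPKM in HFD, and at 10.5 and 12.6 FPKM in HSD against 6.00 and 8.29 FPKM in HFSD. This order without overlap on both sides was shown by 2.5% of the genes tested. Over the alternatives the interaction ran from −1.41 to −1.003 and its adjusted p from 0.439 to 1. The HFSD values rest on 68 and 65 fragments and the HSD values on 82 and 108.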

How the results depend on the processing

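Of 275 values computed under alternatives for 20 results, 229 kept their direction and their side of the threshold or moved little. Some of these could not move, since the replicate block, the missing filter and the model of 2 groups leave the size of a member's difference as it was. The differences with sucrose of SRGN and PXYLP1 stayed, and that of EMP2 grew to −2.33 with a pseudocount of 0.1 and to −2.43 with voom, since 1 FPKM added to a level near 1 shrinks a fold. Rescaling by trimmed means left all directions of the 3 genes as they were. With libraries left out in turn, the differences with fat of PXYLP1 ran from −0.23 to 0.55 in HFD minus ND, from −0.046 to 0.12 in HFSD minus HSD (−0.038 without HFSD replicate 2) and from −0.51 to 0.27 in the interaction, and EMP2 ran from −0.19 to 0.081 in HFSD minus HSD. Of the proteoglycan genes 1 was called lower with sucrose, 0 without the filter, 0 with voom, 2 in the model of 2 groups (PODN and GPC3, adjusted p = 0.0346 each, and not PRELP), and 0 to 3 with libraries left out. The cause was not tested. Over all genes the calls with sucrose were 7 higher and 35 lower, 2 and 6 without the filter, 43 and 98 in the model of 2 groups, 5 and 13 with voom, and 0 to 29 and 4 to 60 with libraries left out. For fat, 1 higher and 0 lower became 0 to 3 and 0 to 4.

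Same-numbered retinas of different diets did not deviate together (correlations of −0.165 to 0.0813 over 6 pairs of diets), so the numbers do not pair the samples. In this balanced design a replicate block cannot change a difference between diets, only its test. With the block the interaction of SRGN had a limma adjusted p of 0.628 and PRELP kept one of 0.0493, while the calls over all genes fell to 2 higher and 23 lower. Depth limits EMP2 and SRGN with sucrose, which rest on 56 to 108 fragments, and 2 retinas per diet limit the rest.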
